A study of Rattus norvegicus with 9 samples.

Results

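The Wnt pathway genes described here are the 49 genes, of 17337 in the count table, whose symbols name Wnt ligands, Frizzled (Fzd) receptors, the co-receptors Lrp5 and Lrp6, secreted antagonists (Sfrp, Dkk and Wif1), R-spondins and their Lgr receptors, Axin proteins, TCF/LEF transcription factors, beta-catenin (Ctnnb1) or the ligand-modifying enzyme Porcn. The rule that picked them used symbols and no measured value, but the set was chosen with earlier results of these data known. Fzd7, Lgr6, Axin1, Tcf7, Rspo4 and Wnt2 were not analysed here. RNA was sequenced from cultured cardiac fibroblasts of Sprague Dawley rats, with 3 libraries from the fetus at embryonic day 18, 3 from the neonate at postnatal day 1 and 3 from adults aged 7 weeks. All cells were primary isolates at passage 0, expanded in flasks until confluent in DMEM with fetal bovine serum, antibiotics and ascorbic acid, and no sort is stated in the labels. No genetic change or treatment other than these shared culture conditions is named for any group. The labels do not say whether the 3 libraries of an age came from separate animals or cultures, so the p-values measure only the spread between these libraries, which may be technical.

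Wnt ligands are secreted, lipid-modified proteins that bind Frizzled receptors. With the co-receptors Lrp5 or Lrp6, a canonical ligand halts the destruction complex built on Axin, so that beta-catenin accumulates and enters the nucleus to act with TCF/LEF factors on target genes such as Axin2 and Lef1. Noncanonical ligands such as Wnt5a and Wnt11 act through other branches that govern cell polarity and movement, secreted antagonists block ligands or co-receptors, and R-spondins bound to Lgr receptors keep Frizzled receptors at the cell surface. In the heart, Wnt signals take part in early cardiac development and in the fibroblast response to injury.

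Library totals ran from 13392825 to 22850491 assigned counts. The 9 fibroblast marker genes examined summed to 22541 CPM in fetal replicate 3 (counts per 1000000 assigned counts, scaled between libraries by the TMM method), 46712 and 49526 in the other fetal libraries, 66437 to 72693 in neonatal and 21853 to 28812 in adult cells. Col1a1 and Col3a1 made up most of each sum, and Col1a2 was under 1 CPM in every library. Every adult library was above all others for 3 of the 9 markers (Pdgfra, Tcf21 and Dcn) and below all others for 2 (Ddr2 and Lum). The 7 mural cell markers summed to 607 CPM in fetal replicate 3, 1089.8 and 1096 in the other fetal libraries, 1392.5 to 1463 in neonatal and 206 to 363 in adult cells. Cardiomyocyte markers summed to 7069 to 10713 CPM in fetal, 5065 to 5615 in neonatal and 304 to 319 in adult cells. Macrophage markers ran the other way, from 7.27 to 61.7 CPM in fetal and 147 to 161 in neonatal to 4145 to 5902 CPM in adult libraries. Fetal replicate 3 stood apart. Its 7 epithelial markers present in the table summed to 242 CPM, against 5.45 to 6.74 in the other fetal libraries and 1.61 to 2.47 at the later ages. Its 8 lung epithelial markers summed to 74.5 CPM, against 1.54 and 1.78 in the other fetal libraries, and Nkx2-1 and Cldn18 made up much of that sum while Sftpa1 and Sftpb were at 0 counts in every library. The 2 lung mesenchymal markers present in the table, Tbx4 and Tbx5 (the latter also a heart gene), summed to 49.3 to 69.2 CPM in fetal and 1.90 to 5.43 CPM in later libraries. Results whose call changed without fetal replicate 3, and many whose size changed, are therefore given with and without it. The part of these other cell types in the results was not tested. Compared gene by gene, fetal replicates 1 and 2 had a chi-square per degree of freedom of 3.96, against 90.6 and 97.9 for each with replicate 3. Neonatal pairs had 2.05 to 2.77 and adult pairs 6.79 to 43.2. Adjusted p-values without fetal replicate 3 thus rest on fetal libraries that differ little.

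Promoters are shown for 4 of the genes on which the results turn. Of the 49 genes, 34 had a promoter window of 300 bases in RefSeq's GRCr8 annotation, and the 250 bases before the annotated start are printed 5′ to 3′ on the gene's strand. The start is that of 1 annotated transcript and can lie within a longer transcript of the same gene. That may be so for Axin2, whose window may then not be its main promoter. Wnt5a and Wnt4 are the ligand genes with the largest share of ligand RNA per length in fetal cells and in the later cells, and Axin2 and Lef1 are standard transcriptional readouts of beta-catenin. Capitals mark the letters CTTTGAA or CTTTGAT, the core recognised by TCF/LEF factors, searched on both strands.
Wnt5a (chr16:3703415-3703664, plus strand): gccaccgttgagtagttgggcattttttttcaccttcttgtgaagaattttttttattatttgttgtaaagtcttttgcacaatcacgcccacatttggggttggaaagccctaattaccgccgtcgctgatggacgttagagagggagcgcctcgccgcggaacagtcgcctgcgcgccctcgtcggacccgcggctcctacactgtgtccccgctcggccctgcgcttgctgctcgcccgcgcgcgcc
Wnt4 (chr5:154797200-154797449, plus strand): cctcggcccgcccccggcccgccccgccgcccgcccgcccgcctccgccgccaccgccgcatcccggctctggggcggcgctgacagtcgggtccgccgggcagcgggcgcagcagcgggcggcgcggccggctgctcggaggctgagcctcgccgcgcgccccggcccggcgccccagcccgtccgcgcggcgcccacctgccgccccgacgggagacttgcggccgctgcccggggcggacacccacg
Axin2 (chr10:94398535-94398784, plus strand): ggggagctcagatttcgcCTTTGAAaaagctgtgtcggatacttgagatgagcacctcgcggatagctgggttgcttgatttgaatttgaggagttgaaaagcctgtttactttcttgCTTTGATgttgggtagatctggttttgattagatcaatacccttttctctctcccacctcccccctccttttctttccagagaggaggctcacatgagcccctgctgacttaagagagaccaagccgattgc
Lef1 (chr2:222340463-222340712, plus strand): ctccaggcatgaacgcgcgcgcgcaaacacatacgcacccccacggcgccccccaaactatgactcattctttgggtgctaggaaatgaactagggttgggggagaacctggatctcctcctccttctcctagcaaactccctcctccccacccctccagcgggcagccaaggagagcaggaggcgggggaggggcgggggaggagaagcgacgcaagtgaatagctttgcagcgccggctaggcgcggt
The Axin2 window held 1 copy of each motif, starting 232 and 132 bases before the start, and the windows of Wnt5a, Wnt4 and Lef1 held none. Across the genes with a window, 3 of 34 held a motif (8.82%), which were Axin2, Dkk1 and Wnt8a, beside 2921 of 33469 windows of the same length over all genes (8.73%). A match is a run of letters and not a mapped site. The Wnt4 stretch was 86.4% G or C, against 57.2% for Wnt5a, 63.2% for Lef1 and 47.6% for Axin2.

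Of the 49 genes, 34 passed the filter on low counts and were tested among 11337 genes with edgeR's quasi-likelihood test, where a call is a Benjamini-Hochberg adjusted p under 0.05. Between fetal and neonatal cells 17 of the 34 were called, 6 higher and 11 lower in neonatal cells, beside 36.3% of all genes tested (18.3% higher and 18.0% lower). Adult cells differed from fetal cells in 21 of the 34, with 5 higher and 16 lower, beside 70.5% of all genes (34.9% higher and 35.5% lower). Adult cells differed from neonatal cells in 21 of the 34 as well, with 8 higher and 13 lower, beside 63.5% of all genes (31.6% higher and 31.8% lower). These comparisons share libraries and are not independent of each other. The median log2 fold change of the tested Wnt genes was −0.24, −1.03 and −0.29 in the 3 comparisons, beside −0.01 in each for all genes tested. Without fetal replicate 3 the calls numbered 18 (5 higher, 13 lower), 25 (7 higher, 18 lower) and 23 (8 higher, 15 lower), and the median against fetal cells was −0.22 for neonatal and −0.58 for adult cells. Without any 1 neonatal library the fetal and neonatal cells differed in only 10 genes, 1 higher and 9 lower, and the count over all genes fell as well, from 4114 to between 2472 and 2625.

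In all, 29 of the 34 tested genes were called in at least 1 comparison, and Wnt5b, Wnt9a, Fzd1, Fzd9 and Dkk4 in none. Of all genes tested, 70.5% were called in adult against fetal cells alone, so their share called in at least 1 comparison is no lower than that. The mean level was highest in fetal cells for 19 of the 34 genes, in neonatal cells for 8 and in adult cells for 7, where 35.7%, 22.3% and 42.0% of all tested genes had their highest mean. Fetal replicate 3 alone was the highest of the 9 libraries for 14 of the 34, beside 23.7% of all tested genes. In these bulk libraries, fewer cells of a type and less RNA per cell cannot be told apart.

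**Figure D1:**
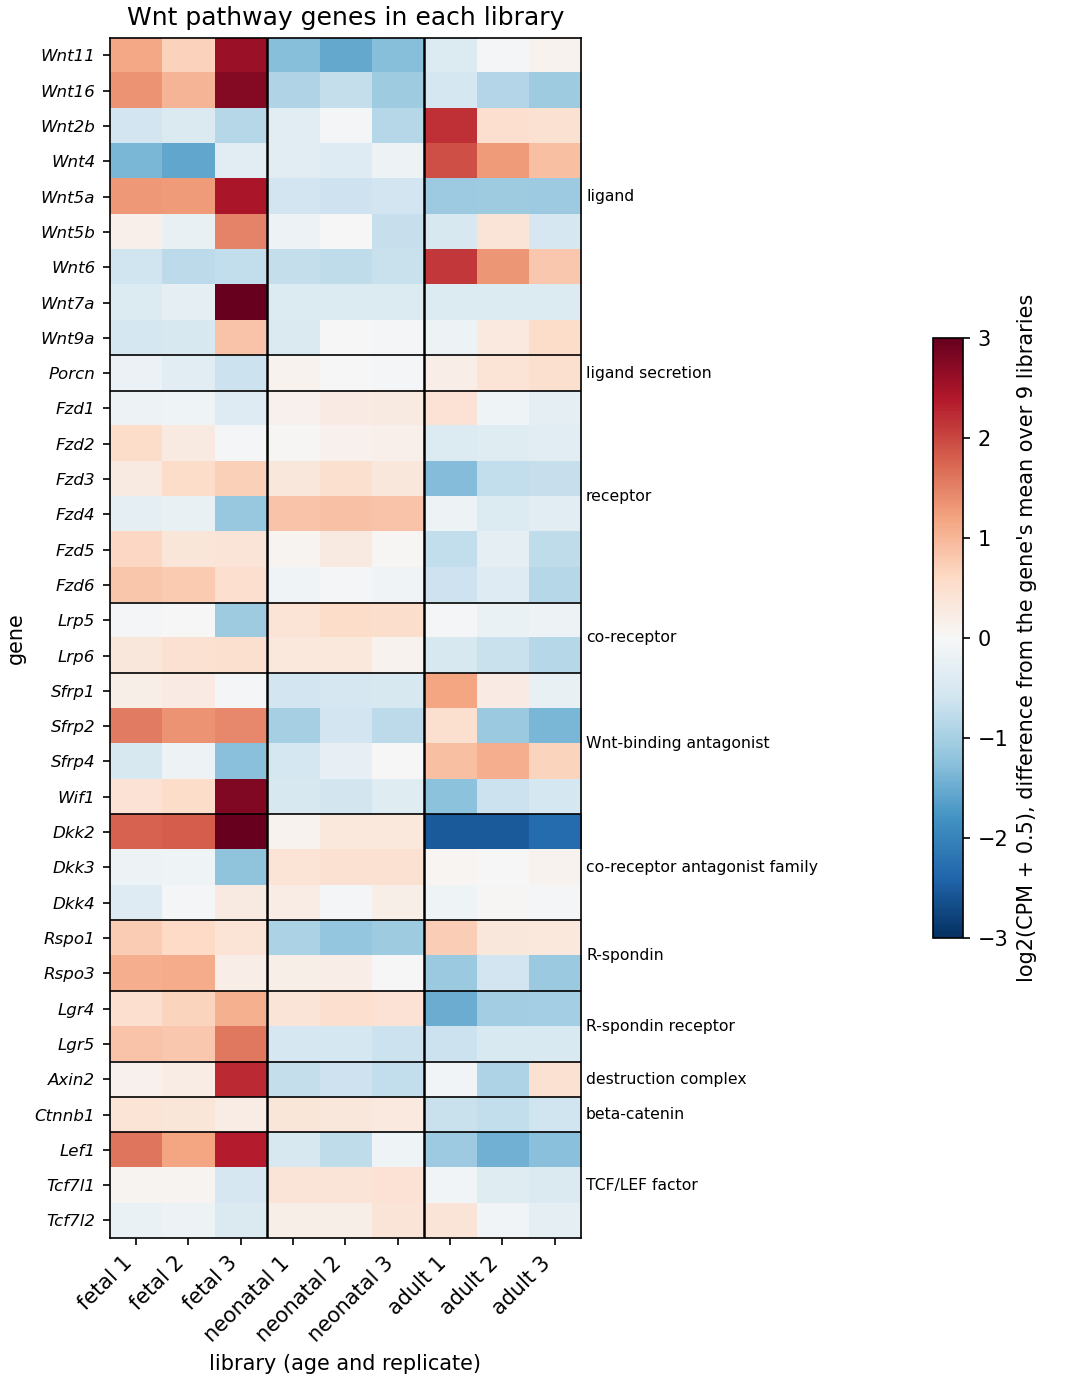
Each row is 1 of the 34 Wnt pathway genes with a mean of at least 1 CPM at some age, each column 1 of the 9 libraries, and the color is log2(CPM + 0.5) relative to the gene's mean over the 9 libraries. Wnt5a, Wnt11, Wnt16, Dkk2 and Lef1 are highest in the fetal columns, Wnt4 and Wnt6 in the adult columns, and fetal replicate 3 is the highest library for Wnt7a, Wif1 and Axin2.

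Wnt5a was the leading ligand transcript of fetal cells and fell at both later ages, while Wnt4 and Wnt6 were highest in adult cells. Of the 18 ligand genes in the table, 8 were tested. In neonatal against fetal cells 3 of them fell and none rose, where 18.0% of all tested genes fell and 18.3% rose. In adult against fetal cells 3 fell and 3 rose (35.5% and 34.9% of all genes), and in adult against neonatal cells 4 rose and none fell (31.6% and 31.8%). At or below 3 counts in all libraries of an age were 6 of the 18 ligand genes in fetal, 11 in neonatal and 10 in adult cells.

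Wnt5a, the prototype noncanonical ligand (chr16:4469451-4490271 on rn6, the build of the count table), was at 47.9, 47.2 and 108 CPM in the fetal libraries, at 12.8, 12.4 and 12.8 CPM in the neonatal and at 8.72, 8.95 and 8.76 CPM in the adult libraries. Every fetal library lay above every later one, and fetal replicate 3 held more than either other fetal library. The log2 fold change was −2.42 ± 0.31 (SE) in neonatal against fetal cells, with an edgeR adjusted p of 0.000631, and −2.94 ± 0.32 in adult against fetal cells, with an adjusted p of 4.1e-05. These changes were −1.91 and −2.43 without fetal replicate 3. Adult against neonatal cells gave −0.52 ± 0.32 with an adjusted p of 0.188. All 3 adult libraries were nonetheless below all 3 neonatal ones, and without fetal replicate 3, which enters the shared estimate of spread, that adjusted p was 0.000145 (0.00147 with only the 2 ages fitted, and 0.000145 to 0.545 over the alternatives). Wnt5a signals partly through Ror2, whose own values are given with the other receptors of the pathway.

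Wnt11, another noncanonical ligand with a role in early heart development (chr1:163797660-163813756), was at 4.0, 2.73 and 11.5 CPM in fetal, 0.33, 0.186 and 0.324 in neonatal and 0.994, 1.44 and 1.65 in adult cells. The 3 ages did not overlap, with neonatal cells lowest. Neonatal cells were lower than fetal cells by a log2 fold change of −4.43 ± 0.64 (edgeR adjusted p 0.00101), and adult cells by −2.15 ± 0.54 (adjusted p 0.00533). Without fetal replicate 3 these were −3.58 and −1.29. Adult cells were above neonatal cells by 2.28 ± 0.70 (edgeR adjusted p 0.017), a call that was lost without neonatal replicate 2 or adult replicate 3 (adjusted p 0.0609 and 0.0517, range over the alternatives 0.000395 to 0.0609).

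Wnt16 (chr4:49369296-49379703) was at 2.16, 1.63 and 6.53 CPM in the fetal libraries and had at most 3 counts in any later library. Its 200 fetal counts stood against 4 neonatal and 4 adult counts, which is a CPM ratio of 45.9 (95% exact interval 17.7 to 170.2, for counting error only) and 33.5 (12.9 to 124). Both falls were called by edgeR, with adjusted p of 0.00195 and 0.000805, and both were called without fetal replicate 3, where the fitted log2 fold changes went from −5.44 to −4.57 and from −5.01 to −4.15. The fitted value also moved to −6.54 without neonatal replicate 2 and to −6.29 without adult replicate 1, the libraries that held 3 of the 4 counts of their age.

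Wnt4, a ligand known from kidney and gonad formation (chr5:155649238-155668059), ran the opposite way. Its level was 1.51, 1.28 and 3.61 CPM in fetal, 3.74, 3.53 and 4.21 in neonatal and 19.6, 12.2 and 9.36 in adult cells. The adult libraries were all above the rest, and fetal replicate 3 was the fetal library nearest to the neonatal ones. Adult cells were higher than fetal cells by a log2 fold change of 2.69 ± 0.41 (edgeR adjusted p 0.000254), which was 3.30 without fetal replicate 3, and higher than neonatal cells by 1.84 ± 0.39 (adjusted p 0.00241). Neonatal against fetal cells gave 0.85 ± 0.41 with an adjusted p of 0.133, and 1.45 with an adjusted p of 0.00884 without fetal replicate 3 (0.00884 to 0.515 over the alternatives).

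Wnt6 and Wnt2b had adult levels above the younger ages at low abundance. Wnt6 was at 3.90, 2.02 and 1.27 CPM in the adult libraries and had 2 or 3 counts in each of the others. Its 96 adult counts stood against 7 fetal and 6 neonatal counts, CPM ratios of 20.4 (95% exact interval 9.55 to 52.2) and 21.9 (9.71 to 61.2), and edgeR called both differences (adjusted p 8.7e-05 and 0.000125). Wnt2b was at 3.67, 0.794 and 0.749 CPM in adult libraries, with 69 counts against 6 fetal and 12 neonatal counts. Adult replicate 1 held most of those counts. The difference from fetal cells (log2 4.03 ± 1.02, edgeR adjusted p 0.00588) was 2.88 without adult replicate 1 and 4.83 without fetal replicate 2. The difference from neonatal cells (2.99 ± 0.92, adjusted p 0.018) was lost without neonatal replicate 1, neonatal replicate 3 or adult replicate 1, with adjusted p from 0.0505 to 0.0983 (0.00825 to 0.0983 over the alternatives). The fitted value from neonatal cells was 1.83 without adult replicate 1 and 3.80 without neonatal replicate 2.

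The remaining ligands gave no call. Wnt9a averaged 3.83 ± 2.57 CPM in fetal, 3.11 ± 0.55 in neonatal and 4.33 ± 1.13 in adult cells (SD, n = 3), and Wnt5b 2.14 ± 1.75, 0.890 ± 0.333 and 1.01 ± 0.57. For Wnt9a, adult against fetal cells had an adjusted p of 0.713, which was 0.0103 without fetal replicate 3 (0.0103 to 1 over the alternatives). Wnt7a, a ligand of many epithelia, was at 0, 0.0441 and 5.05 CPM in the fetal libraries and had no count at either later age. Fetal replicate 3 thus held almost all Wnt7a counts of the series, and it also held 35 of the 36 counts of Wnt7b and all 46 of Wnt10a. These 3 ligands were not tested. They were high in the library in which all 7 epithelial markers were highest, and the part of other cells in their levels was not tested.

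**Figure D2:**
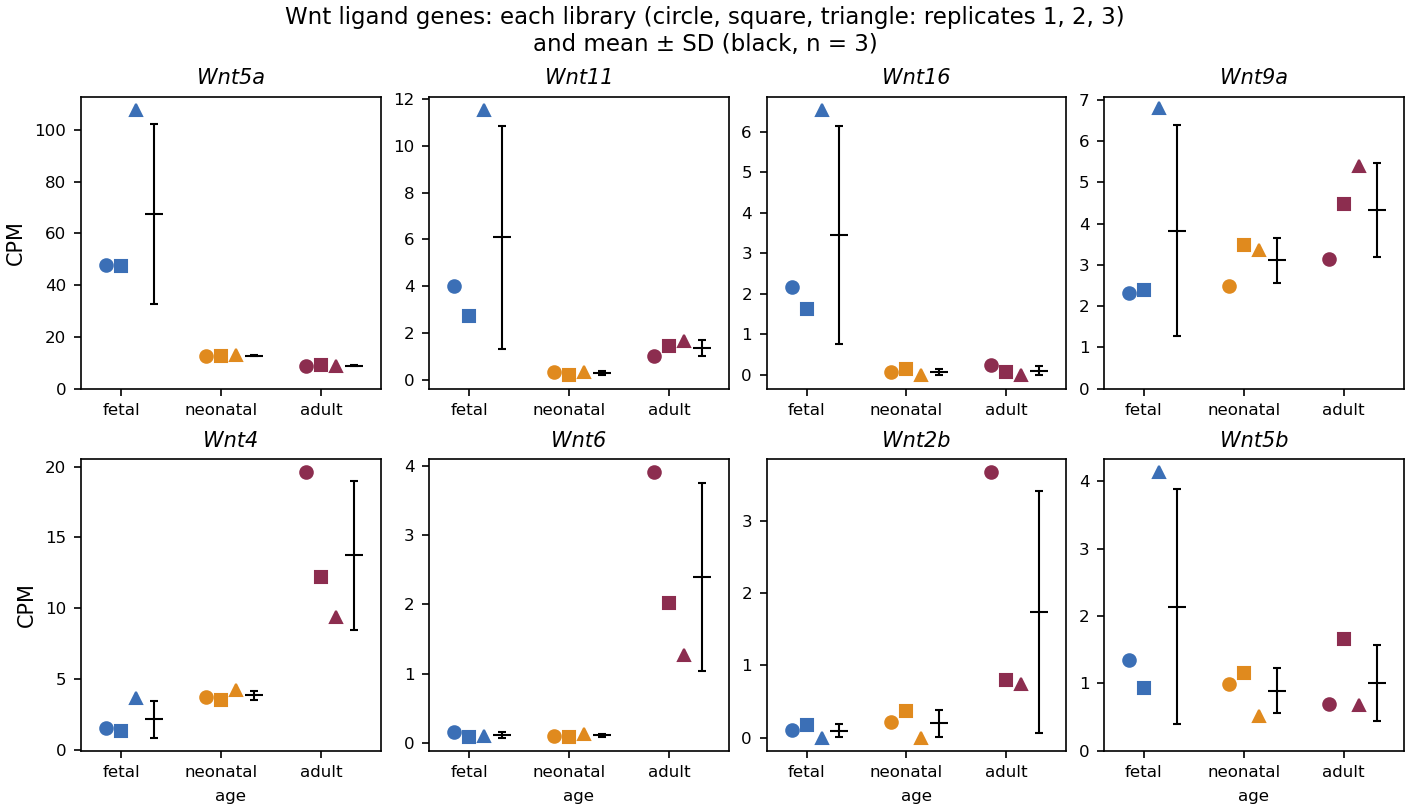
TMM-scaled CPM of the 8 tested Wnt ligand genes in each library by age (circle, square and triangle for replicates 1, 2 and 3), with the mean and SD in black (n = 3). Wnt5a lies between 47.2 and 108 CPM in fetal libraries and under 13 CPM at the later ages, and Wnt4 between 9.36 and 19.6 CPM in adult libraries.

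Levels of different ligands were compared per length, as CPM per kilobase of annotated exon (RPKM). The summed ligand RPKM was 14.6, 13.2 and 40.0 in the fetal, 7.10, 7.25 and 7.34 in the neonatal and 23.8, 16.1 and 13.3 in the adult libraries. Neonatal cells had the lowest sums, and the fetal and adult ranges overlapped. Wnt5a made up 58.8% ± 8.3 of the sum in fetal cells (SD, n = 3), 32.3% ± 0.7 in neonatal and 9.72% ± 2.72 in adult cells. Wnt4 made up 8.05% ± 0.56, 43.9% ± 3.6 and 63.2% ± 5.0. Neither share overlapped between ages, and the leading ligand per length was Wnt5a in every fetal library and Wnt4 in every neonatal and adult library. Wnt11 and Wnt16 followed in fetal cells with 9.93% and 8.73%, and Wnt9a took that place at the later ages with 12.9% in neonatal and 8.14% in adult cells. Wnt6 reached 6.23% and Wnt2b 4.89% in adult cells. The neonatal lead of Wnt4 depends on the annotated lengths, 1.205 kilobases for Wnt4 and 5.422 for Wnt5a. By CPM, Wnt5a was above Wnt4 in every neonatal library, at 12.4 to 12.8 against 3.53 to 4.21 CPM.

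**Figure D3:**
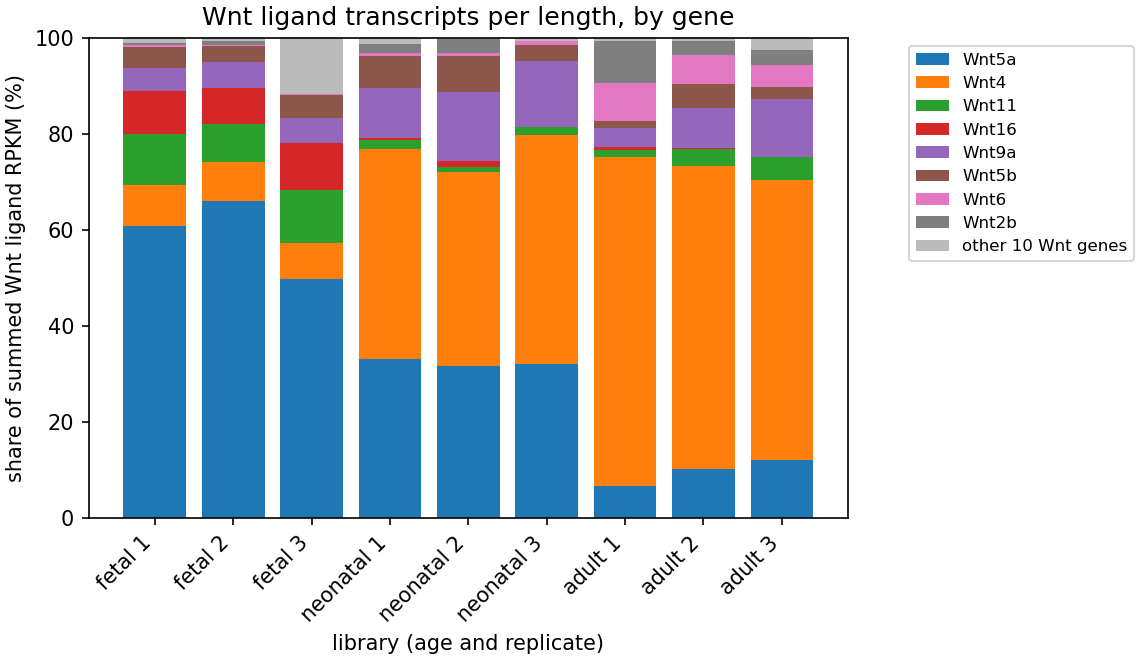
Share of the summed Wnt ligand RPKM taken by each gene, as stacked bars that fill 100% in each of the 9 libraries. Wnt5a takes 49.7% to 66.0% of the bars of the fetal libraries, and Wnt4 takes 40.4% to 47.5% in neonatal and 58.3% to 68.3% in adult libraries.

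Porcn, the enzyme that attaches the lipid that Wnt ligands need for secretion, averaged 13.1 ± 2.1 CPM in fetal, 17.2 ± 0.9 in neonatal and 22.0 ± 2.2 in adult cells. It was higher at each later age than at each earlier one, with log2 fold changes of 0.40, 0.75 and 0.36 for neonatal against fetal, adult against fetal and adult against neonatal cells (edgeR adjusted p 0.0444, 0.000742 and 0.0404). The smaller changes were sensitive to the libraries used. The call for neonatal against fetal cells was lost without fetal replicate 2 or 3, any neonatal library, or adult replicate 2 or 3, and that for adult against neonatal cells without fetal replicate 2, any neonatal library, or adult replicate 2 or 3.

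Of the 7 Frizzled receptors tested, 4 were lower in adult than in fetal cells and 3 were not called, where 35.5% of all genes were lower. Against neonatal cells 5 were lower in adult cells, where 31.8% of all genes were, and none was higher in either comparison. In neonatal against fetal cells Fzd4 rose and Fzd6 fell. Fzd4, a receptor that also serves the ligand norrin in blood vessels (chr1:153589471-153598376), was at 83.5, 87.0 and 46.3 CPM in fetal, 184, 187 and 186 in neonatal and 91.3, 76.5 and 80.1 in adult cells. All 3 neonatal libraries were above all others, and the fetal and adult libraries overlapped. The summed mural markers and the summed fibroblast markers, mostly Col1a1 and Col3a1, were also highest in the neonatal libraries. Within the fetal ones they were lowest in replicate 3, as were Fzd4, Lrp5, Dkk3 and Tcf7l1. The fibroblast markers Pdgfra, Tcf21 and Dcn were instead highest in adult libraries. Among the mural markers, Rgs5, Abcc9, Myh11 and Notch3 were highest in neonatal libraries. Des was instead highest in fetal ones, at 338 to 404 CPM against 215 to 246 CPM in neonatal ones. Cspg4 overlapped between these ages, and Kcnj8 between neonatal and adult libraries. Within the fetal libraries, Abcc9 was highest in replicate 3. The part of these cell types in the results for Fzd4, Lrp5, Dkk3 and Tcf7l1 was not tested. The Fzd4 log2 fold change was 1.36 ± 0.20 in neonatal against fetal cells (edgeR adjusted p 0.00134) and −1.17 ± 0.20 in adult against neonatal cells (adjusted p 0.000874). The former was 1.12 without fetal replicate 3.

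Fzd6, often linked to tissue polarity, was at 39.4, 38.1 and 31.0 CPM in fetal, 20.4, 21.2 and 20.3 in neonatal and 14.1, 16.8 and 11.8 in adult cells, with no overlap between ages. It fell by 0.81 on the log2 scale in neonatal cells (edgeR adjusted p 0.00192), and the adult change was −1.35 from fetal cells (adjusted p 1.9e-05) and −0.54 from neonatal cells (adjusted p 0.00739). Fzd3, a receptor needed for axon guidance, was at 10.5, 12.9 and 14.4 CPM in fetal, 10.9, 12.3 and 11 in neonatal and 3.21, 4.98 and 5.17 in adult cells. Its fetal and neonatal libraries overlapped and its adult libraries were all lower. The adult change was −1.50 ± 0.20 from fetal cells and −1.35 ± 0.20 from neonatal cells (edgeR adjusted p 0.000101 and 0.000268). Fzd5, at 3.99, 3.09 and 1.68 CPM on average in fetal, neonatal and adult cells, and Fzd2, at 110.0, 97.3 and 70.3 CPM, were lower in adult cells than at either younger age too, by −1.24 and −0.87 for Fzd5 and by −0.64 and −0.47 for Fzd2. Fzd2 was also called lower in neonatal than in fetal cells without fetal replicate 3 (edgeR adjusted p 0.0102, against 0.282 with it, and 0.0102 to 1 over the alternatives).

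Per length, Fzd1 had the highest mean of the Frizzled transcripts analysed at every age. It was at 60.5 ± 6.0, 81.3 ± 3.7 and 71.7 ± 19.6 RPKM in fetal, neonatal and adult cells, or 42.0%, 47.6% and 55.9% of the summed Frizzled RPKM. Its CPM means of 266, 358 and 315 gave no call. In neonatal against fetal cells the adjusted p of 0.0727 became 0.00685 when adult replicate 1 was left out and 0.0491 for adult replicate 3, and in adult against neonatal cells it was 0.362, and 0.00598 without adult replicate 1 (ranges over the alternatives 0.00685 to 1 and 0.00598 to 1). Fzd2 came next with 39.7%, 29.9% and 29.6%, followed by Fzd4 with 7.17%, 15.9% and 9.57%. In fetal replicate 1 Fzd2 was above Fzd1, with 42.9% against 39.3%. Fzd9 was under 1 CPM at every age and was not called, with an adjusted p of 0.0589 in adult against fetal cells that was 0.0447 without fetal replicate 3 and 0.0389 without adult replicate 2 (0.0389 to 0.200 over the alternatives). Fzd8 had no count in any library. The annotation lists exons of the same lengths at 2 places for Fzd8, as it does for Dkk1, and reads that map to several places are left out by the counting program's defaults. Of 410 genes listed in this way, 69.5% had no count, against 17.0% of the other 16927 genes, so the 0 counts of Fzd8 and Dkk1 cannot be read as absent expression.

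The co-receptors differed from each other. Lrp6 (chr4:168194927-168297373) was at 96.4, 105 and 107 CPM in fetal, 95.8, 95.6 and 81.8 in neonatal and 54.5, 47.9 and 41.6 in adult cells. The adult libraries were all below the younger ones. The adult change was −1.09 ± 0.11 from fetal cells (edgeR adjusted p 1.4e-05) and −0.92 ± 0.11 from neonatal cells (adjusted p 6.2e-05), while neonatal against fetal cells gave −0.17 with an adjusted p of 0.222. Lrp5 averaged 106 ± 38 CPM in fetal, 183 ± 9 in neonatal and 119 ± 7 in adult cells, and was called higher in neonatal than in fetal cells (log2 0.79, adjusted p 0.0284) and lower in adult than in neonatal cells (−0.62, adjusted p 0.044). The former call was lost without any 1 neonatal library (adjusted p 0.0617 to 0.0789, range over the alternatives 9.7e-05 to 0.25), and the latter without any 1 neonatal or adult library (0.0697 to 0.106, range over the alternatives 2.8e-06 to 0.312). In neonatal against fetal cells the Lrp5 change was 0.52 without fetal replicate 3.

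The Wnt-binding antagonists, which trap ligands outside the cell, moved in different directions. Of the 4 tested, Sfrp2 and Wif1 were lower at both later ages than in fetal cells, Sfrp4 was higher in adult cells than at both younger ages, and Sfrp1 was higher in adult than in neonatal cells. Sfrp2 was at 14.1, 12 and 12.9 CPM in fetal, 1.98, 2.83 and 2.39 in neonatal and 6.43, 1.81 and 1.42 in adult cells. The fetal libraries were all above the rest, and adult replicate 1 was the highest of the later libraries. The log2 fold change from fetal cells was −2.43 ± 0.46 in neonatal cells (edgeR adjusted p 0.00432) and −2.02 ± 0.46 in adult cells (adjusted p 0.00353), the latter −3.0 without adult replicate 1.

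Wif1 was at 4.97, 5.42 and 27.4 CPM in fetal, 2.42, 2.28 and 2.65 in neonatal and 1.22, 2.09 and 2.32 in adult cells. Fetal replicate 3 stood far above the other fetal libraries, and those were still above all later ones. The log2 fold change was −2.36 ± 0.65 in neonatal cells (edgeR adjusted p 0.0228) and −2.73 ± 0.69 in adult cells (adjusted p 0.0063). Without fetal replicate 3 the fetal mean of 12.6 CPM was 5.19 CPM and the changes were −1.09 (adjusted p 0.00317) and −1.46 (adjusted p 0.000237). The neonatal call was lost without any 1 neonatal library (adjusted p 0.0668 to 0.0798), and its adjusted p ranged from 0.000491 to 0.0798 over the alternatives, that of the adult call from 1.8e-05 to 0.0258.

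Sfrp4 was at 5.24, 6.70 and 2.87 CPM in fetal, 5.12, 6.32 and 7.51 in neonatal and 14.5, 16.7 and 12.3 in adult cells. The younger ages overlapped, and every adult library was above them, by a log2 fold change of 1.55 ± 0.28 from fetal and 1.2 ± 0.28 from neonatal cells (edgeR adjusted p 0.000888 and 0.00441). Sfrp1 was at 218, 227 and 183 CPM in fetal, 129, 136 and 138 in neonatal and 435, 229 and 164 in adult cells. The adult libraries spread over more than the fetal range, and all were above the neonatal ones, by 1.04 ± 0.30 (edgeR adjusted p 0.014), which was not called with only the 2 ages fitted (0.0675, the highest of the alternatives, with 0.000528 the lowest). In adult against fetal cells Sfrp1 had an adjusted p of 0.252, which was 0.0325 without adult replicate 3 (0.0325 to 0.671 over the alternatives). In neonatal against fetal cells the adjusted p was 0.122, and leaving out adult replicate 1 or 3 gave 0.00601 and 0.0456 (0.00308 to 0.635 over the alternatives).

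Among the Dickkopf genes, Dkk2, which binds the co-receptors, had the largest fitted fold change of the 34 tested genes. It was at 9.18, 9.56 and 22.5 CPM in fetal and 2.59, 3.07 and 3.04 CPM in neonatal libraries, and the 3 adult libraries held 1 count in all (chr2:237148918-237240883). The ages did not overlap. Neonatal cells were lower than fetal cells by a log2 fold change of −2.24 ± 0.37 (edgeR adjusted p 0.00206), which was −1.69 without fetal replicate 3. The 1 adult count stood against 811 fetal and 160 neonatal counts, CPM ratios of 544 (95% exact interval 97.4 to 21517) and 117 (20.7 to 4644). Both adult differences were called, with adjusted p of 4.8e-06 and 0.000123, and their fitted log2 values of −8.74 and −6.50 went to −10.93 and −8.69 without adult replicate 3, the library that held the count.

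Dkk3, a divergent member of the family with no settled action on Wnt signals, was at 406, 414 and 195 CPM in fetal, 599, 618 and 622 in neonatal and 467, 448 and 483 in adult cells, with no overlap between ages. It was called higher in neonatal than in fetal cells (log2 0.86 ± 0.24, edgeR adjusted p 0.0223), a call that was lost without any 1 neonatal library (adjusted p 0.0568 to 0.0631). That change was 0.58 without fetal replicate 3. Without fetal replicate 3, the lowest library, adult against fetal cells changed from an adjusted p of 0.109 to 0.00712 and adult against neonatal cells from 0.173 to 1.6e-05 (ranges over the alternatives 0.00712 to 0.537 and 1.6e-05 to 0.740). Dkk4 averaged 9.15, 10.2 and 9.10 CPM and was not called in any comparison. Per length, Dkk3 made up 44.8% ± 11.2, 71.8% ± 0.4 and 53.0% ± 10.6 of the summed secreted antagonist RPKM in fetal, neonatal and adult cells, and Sfrp1 36.8% ± 1.7, 20.2% ± 0.2 and 37.8% ± 11.5.

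Rspo1, the R-spondin that made up 91.3%, 85.2% and 99.5% of the summed R-spondin RPKM in fetal, neonatal and adult cells, had its lowest level in neonatal cells (chr5:142986526-143007831). It was at 30.1, 27.0 and 23.8 CPM in fetal, 8.97, 7.62 and 8.15 in neonatal and 30, 22.6 and 21.9 in adult cells. The fetal and adult libraries overlapped, and every neonatal library was below them. Neonatal cells were lower than fetal cells by a log2 fold change of −1.71 ± 0.15 (edgeR adjusted p 7.2e-05), and adult cells higher than neonatal cells by 1.59 ± 0.15 (adjusted p 1.7e-05). Adult against fetal cells gave −0.12 with an adjusted p of 0.468. Rspo3 averaged 1.44 and 0.680 CPM in fetal and neonatal cells, and 3 adult counts, all in adult replicate 2, stood against 88 fetal and 38 neonatal counts. These are CPM ratios of 19.7 (95% exact interval 6.52 to 97.3) and 9.25 (2.94 to 46.8), both called (edgeR adjusted p 0.0011 and 0.0113), and their fitted log2 values of −4.16 and −3.09 went to −7.69 and −6.61 without adult replicate 2. In neonatal against fetal cells Rspo3 had an adjusted p of 0.136, which was 0.0174 without fetal replicate 3 (0.0174 to 0.477 over the alternatives).

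Lgr4, the R-spondin receptor with the higher level (chr3:101051957-101152119), was at 48.8, 54.5 and 72.1 CPM in fetal, 44.5, 49.0 and 46.5 in neonatal and 11.9, 16.3 and 16.5 in adult cells. The fetal and neonatal libraries overlapped at 48.8 and 49.0 CPM, and the adult libraries were all lower. The adult change was −1.97 ± 0.17 from fetal cells (edgeR adjusted p 6.1e-06) and −1.65 ± 0.17 from neonatal cells (adjusted p 3.0e-05). Lgr5, a marker of stem cells in several epithelia, was at 0.918, 0.881 and 1.86 CPM in fetal libraries, and its 72 fetal counts stood against 2 neonatal and 2 adult counts. The CPM ratios were 33.1 (95% exact interval 8.83 to 278) and 24.2 (6.45 to 203), and both were called (edgeR adjusted p 0.00116 and 0.000475).

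**Figure D4:**
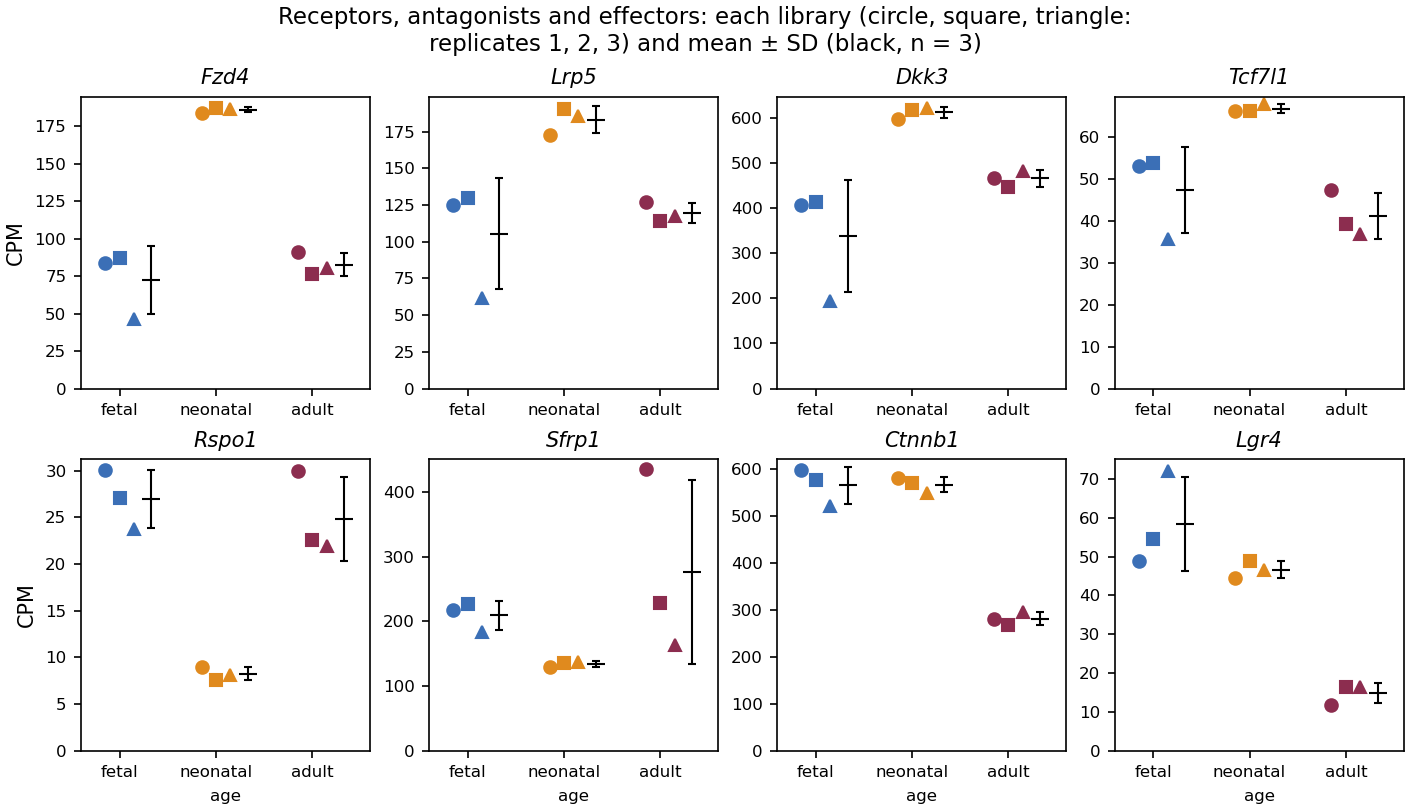
TMM-scaled CPM of 8 receptors, antagonists and effectors in each library by age (circle, square and triangle for replicates 1, 2 and 3), with the mean and SD in black (n = 3). Fzd4, Lrp5 and Dkk3 are highest in neonatal libraries, Rspo1 is lowest there at 7.62 to 8.97 CPM, and Ctnnb1 and Lgr4 are lowest in adult libraries.

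Ctnnb1, which encodes beta-catenin (chr8:129617853-129627362), was at 598, 577 and 523 CPM in fetal, 581, 572 and 549.5 in neonatal and 281, 269 and 296 in adult cells. The younger ages overlapped and the adult libraries were all lower, at a log2 fold change of −1.01 ± 0.07 from either age (edgeR adjusted p 2.4e-06 and 4.0e-06). Neonatal against fetal cells gave 0.00 ± 0.07 with an adjusted p of 0.975. RNA level alone does not give the amount of beta-catenin protein, which is set largely by its breakdown. In adult libraries the cardiomyocyte markers were lower for all 11 genes present and the macrophage markers higher for all 12, and their part in the adult changes of Ctnnb1 or of any other gene here was not tested.

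Axin2, a scaffold of the destruction complex and a direct target of beta-catenin (chr10:97212483-97238822 on rn6), was at 1.57, 1.72 and 8.50 CPM in fetal, 0.660, 0.743 and 0.647 in neonatal and 1.30, 0.505 and 2.10 in adult cells. Every fetal library was above every neonatal one, the adult libraries overlapped both ages, and fetal replicate 3 was the highest. Neonatal cells were called lower than fetal cells (log2 −2.50 ± 0.75, edgeR adjusted p 0.0292), and the change was −1.25 without fetal replicate 3 (adjusted p 0.0426), where the fetal mean went from 3.93 to 1.64 CPM. That call was lost without any 1 neonatal library (adjusted p 0.0862 to 0.0889, range over the alternatives 0.00288 to 0.0901). Adult against fetal cells gave −1.59 ± 0.72 with an adjusted p of 0.0738, which was 0.0317 and 0.0372 without fetal replicate 1 or 2 and 0.475 without fetal replicate 3 (0.0317 to 0.475 over the alternatives). Adult against neonatal cells had an adjusted p of 0.349.

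Lef1, a TCF/LEF factor and a target of the pathway (chr2:236233438-236327731 on rn6), fell from fetal to neonatal and again to adult cells. It was at 4.21, 3.0 and 7.38 CPM in fetal and 0.605, 0.418 and 0.906 CPM in neonatal libraries, and had 3, 1 and 2 counts in the adult libraries. The ages did not overlap. Neonatal cells were lower than fetal cells by a log2 fold change of −2.93 ± 0.43 (edgeR adjusted p 0.00115), which was −2.51 without fetal replicate 3. The 6 adult counts stood against 285 fetal and 34 neonatal counts, CPM ratios of 31.9 (95% exact interval 14.5 to 87.6) and 4.14 (1.72 to 12.1), with adjusted p of 3.7e-05 and 0.0238. The call against neonatal cells was lost without neonatal replicate 3, adult replicate 2 or adult replicate 3 (adjusted p 0.0607 to 0.0781, range over the alternatives 0.00594 to 0.0781).

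The other TCF/LEF factors, which keep target genes silent until beta-catenin binds them, had smaller fold changes. Tcf7l1 averaged 47.5 ± 10.3, 66.8 ± 1.0 and 41.2 ± 5.5 CPM and Tcf7l2 17.9 ± 2.0, 25.8 ± 2.4 and 22.3 ± 5.5 CPM in fetal, neonatal and adult libraries. Both were called higher in neonatal than in fetal cells, by a log2 fold change of 0.49 and 0.52 (edgeR adjusted p 0.0325 and 0.0353), and for Tcf7l1 adult against neonatal cells gave −0.70, also a call (adjusted p 0.00332). The neonatal calls were lost without any 1 neonatal library or adult replicate 2, and for Tcf7l2 also without fetal replicate 1 or 3. Both were also lost when libraries were scaled by their totals alone (adjusted p 0.0504 and 0.0811, ranges over the alternatives 0.0151 to 0.887 and 0.00869 to 0.772). Without fetal replicate 3 Tcf7l1 was also called lower in adult than in fetal cells (adjusted p 0.0033, against 0.260 with it, and 0.0033 to 1 over the alternatives). Tcf7l2 was called higher in adult than in fetal cells without adult replicate 3 (adjusted p 0.041), and below neonatal cells without adult replicate 1 (0.0204), against 0.125 and 0.289 with all libraries (0.041 to 0.914 and 0.0204 to 1 over the alternatives). Per length, Tcf7l1 made up 62.8%, 72.8% and 66.8% of the RPKM of the 3 TCF/LEF genes, and Lef1 15.4%, 1.59% and 0.545%.

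**Figure D5:**
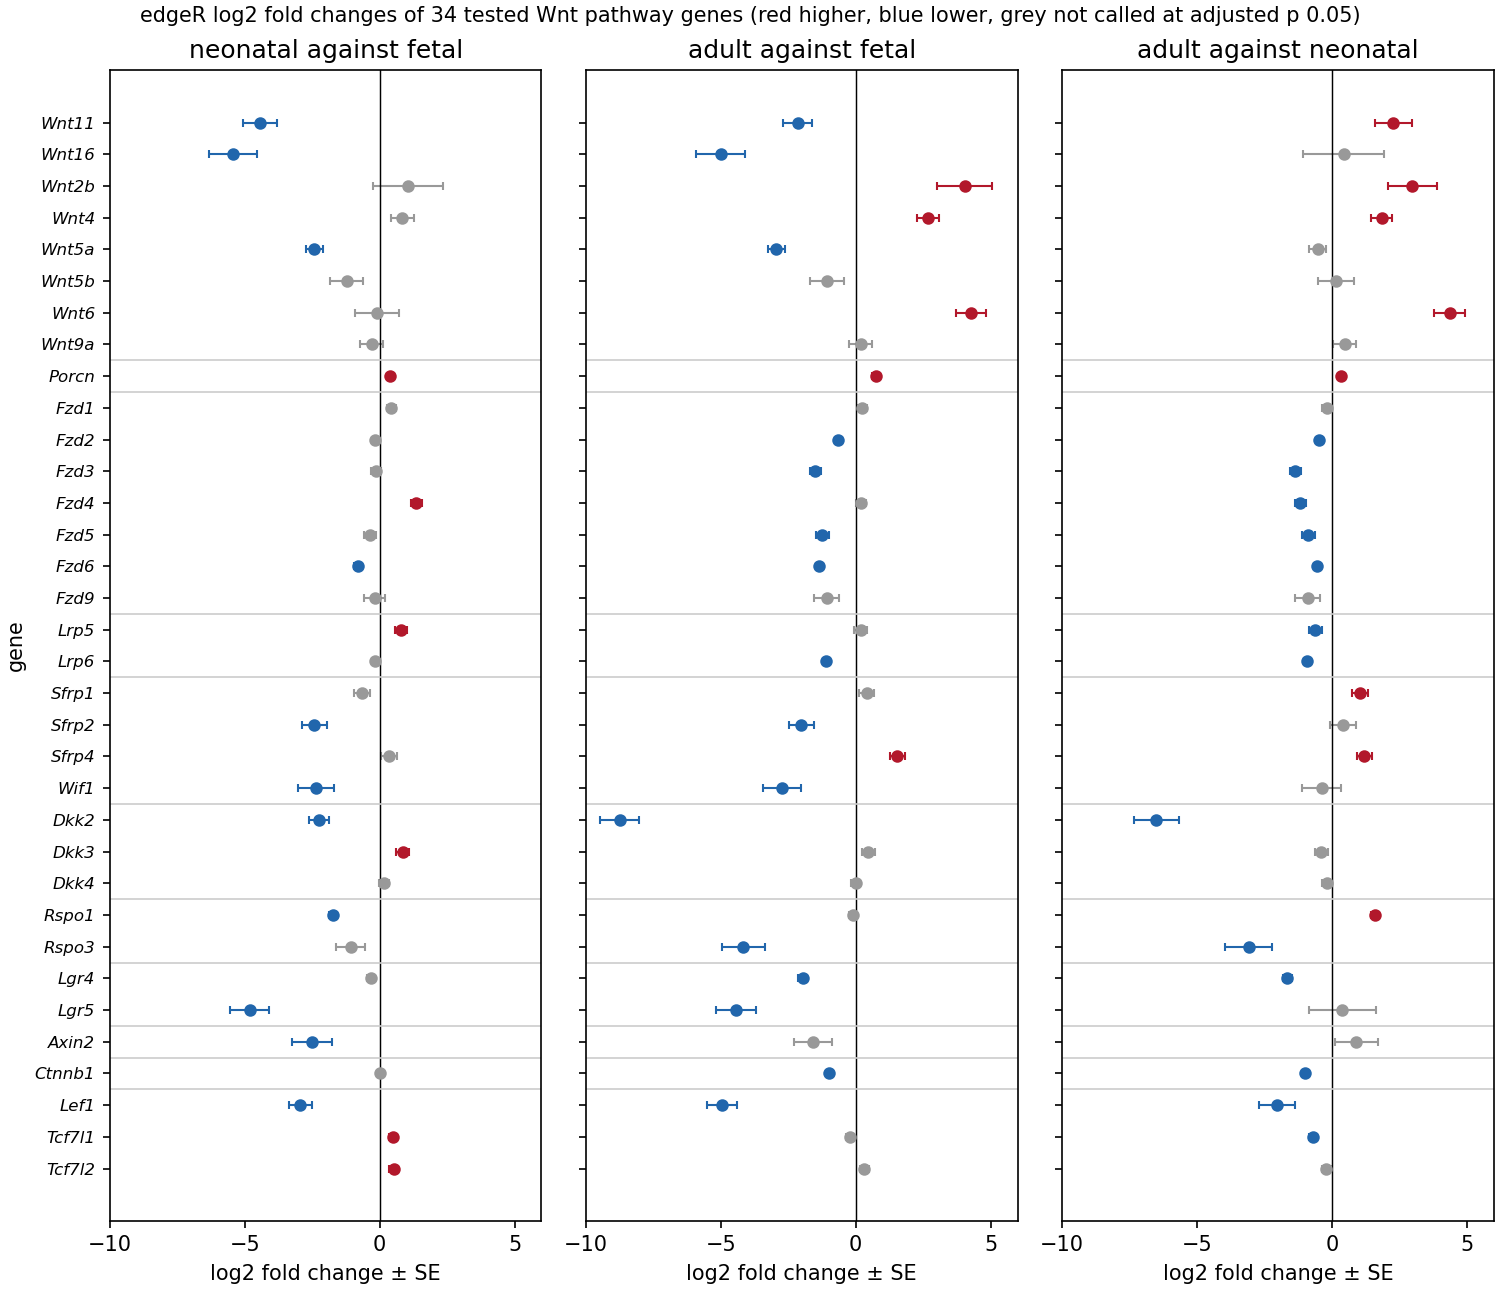
edgeR log2 fold changes with SE for the 34 tested Wnt pathway genes in neonatal against fetal, adult against fetal and adult against neonatal cells, red where called higher, blue where called lower and grey where not called at an adjusted p of 0.05. The adult against fetal panel holds 16 blue and 5 red points, and the widest value, −8.74 for Dkk2, belongs to a gene with 1 count over the 3 adult libraries.

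The 15 genes under 1 CPM at every age were Wnt1, Wnt3, Wnt3a, Wnt7b, Wnt8a, Wnt8b, Wnt9b, Wnt10a, Wnt10b, Fzd8, Fzd9, Fzd10, Sfrp5, Dkk1 and Rspo2. Their counts ran from 0 to 46, and 5 of them (Dkk1, Fzd8, Wnt3a, Wnt8a and Wnt9b) had no count in any library. A count of 0 allows up to 3 counts in a library, for counting error only. Averaged over the libraries of an age, 3 counts were 0.151 CPM in fetal, 0.166 in neonatal and 0.224 in adult cells. Rspo2 had 3 to 13 counts in each fetal and neonatal library and none in adult libraries.

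A further 63 genes of the pathway outside these families were in the table, and 54 were tested. In neonatal against fetal cells 11 rose and 10 fell, in adult against fetal cells 12 rose and 29 fell, and in adult against neonatal cells 10 rose and 31 fell. The median log2 fold changes were −0.02, −0.44 and −0.59. Of all genes tested, 18.3% rose and 18.0% fell in the first comparison, 34.9% and 35.5% in the second, and 31.6% and 31.8% in the third. Of the planar polarity genes, 7 of 9 were lower and 1 higher in adult than in fetal cells, and 8 of 9 were lower and 1 higher in adult than in neonatal cells. Of the destruction complex and cytoplasmic genes, 9 of 16 were lower and 4 higher in adult than in fetal cells. Of the 9 tested target genes often used as readouts, 4 were higher and 2 lower in adult than in fetal cells. Against neonatal cells 3 of the 9 target genes were higher in adult cells and 2 lower.

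The widest called change of each group was between adult and fetal cells, where only genes averaging 5 CPM or more at 1 of the ages compared were considered. Ror2, the Wnt5a co-receptor named above, was at 157 ± 31 CPM in fetal, 53.0 ± 3.0 in neonatal and 19.0 ± 3.2 in adult cells, with an adult log2 fold change of −3.05 ± 0.17 (edgeR adjusted p 3.5e-07). Wnt5a and Ror2 were thus both lower at the later ages, as each gene's own test showed. Wisp1, a secreted matricellular protein first found as a Wnt target, was at 163 ± 9, 34.7 ± 3.9 and 4.38 ± 0.65 CPM, with an adult change of −5.21 ± 0.13 (adjusted p 3.5e-09). Tle1, a co-repressor that TCF/LEF factors recruit, was at 22.3 ± 0.4, 6.33 ± 0.12 and 4.20 ± 0.13 CPM, with a change of −2.41 (adjusted p 9.3e-08). Vangl2, a core planar polarity protein, changed by −2.69 (adjusted p 1.2e-05). Amer1, which helps the destruction complex at the membrane, changed by −2.13 (adjusted p 0.0001). Cpz, a carboxypeptidase with a Frizzled-like domain, rose, from 12.4 ± 8.5 CPM in fetal to 82.5 ± 68.6 CPM in adult libraries (log2 2.73 ± 0.71, adjusted p 0.00726). Its values were 18.2, 16.3 and 2.66 CPM in the fetal and 161, 53.6 and 33.2 CPM in the adult libraries. Without fetal replicate 3 the fetal mean was 17.2 CPM.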

How the data were processed

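Counts of reads per gene were deposited for 9 libraries, 3 per age. Per the file headers, the authors made the counts with featureCounts 1.6.3 on rn6 with options for annotation and output only, so counting was unstranded and left out reads mapped to several places. The submitters' processing notes also name FastQC, Trimmomatic 0.39, STAR 2.5.2b, Subread 1.6.3 and DESeq2. A deposited table of normalized signal values for 12786 genes held each count divided by a library's size factor and was used only for that check.

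Tests used edgeR 4.0.16 in R 4.3.3: filterByExpr by age (11337 of 17337 genes kept), TMM scaling, and robust quasi-likelihood fits of all 9 libraries on age alone. Benjamini-Hochberg adjustment ran over all genes tested in a comparison, with 0.05 as the threshold. The scripts were tested on simulated data. CPM used TMM-scaled library sizes, and RPKM is CPM per kilobase of annotated exon. No exon of the 49 genes overlapped an exon of another gene in the table. Where an age had few counts, the ratio of summed counts per effective library size is given with an exact 95% interval, which covers counting error only, since PCR copies of a molecule cannot be recognised. Precision is set by totals of 13392825 to 22850491 counts and by n = 3.

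The gene set and gene lists were chosen with earlier results of these data known. Every gene of the set reaching a mean of 1 CPM at an age is named, with full values where it was called with a log2 fold change of at least 1 and reached a mean of 5 CPM; of the other pathway genes, the called gene with the largest change in each group that reached 5 CPM is named. Values in full beyond that rule (Wnt16, Wnt6, Wnt2b, Axin2, Lef1, Lgr5, Rspo3, Wnt7a and the genes whose calls depend on 1 library) were added after their values were seen. So were the changes of Wisp2, Myc, Cd44, Ccnd1 and Tnfrsf19. Alternatives were other scaling, no filter on low counts, the replicate number as a block, a threshold on the fold change, only the ages compared, DESeq2 1.42.0, and leaving out each library.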

Additional observations from a re-analysis of the deposited data

How the results depend on the processing

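The 16 alternatives were run for 102 gene results, each a tested gene in a comparison. Of these, 66 kept their side of the threshold under all 16 and 36 changed sides under at least 1. None of the 59 called results changed sign, and 14 of those not called did under at least 1, such as Wnt9a in neonatal against fetal cells (log2 −0.55 to 0.40). Counts of called genes in neonatal against fetal, adult against fetal and adult against neonatal cells were 17, 21 and 21. They were 18, 24 and 22 with DESeq2, 16, 24 and 20 with no filter on low counts, and 17, 21 and 22 with only the ages compared. The counts with DESeq2 and with no filter include genes not tested in the main fit. Both settings called Rspo2 lower in adult cells against either younger age, and Fzd10 lower in adult against fetal cells. With no filter Sfrp5 was called higher in adult against fetal cells. Among the 102 gene results, DESeq2 added 2 calls and lost 0, and no filter added 0 and lost 3. Tested against a log2 fold change of 0.5, 9 genes were called in neonatal against fetal cells and 13 in adult against neonatal cells, as this test asks for larger changes. Leaving out 1 library gave 10 to 19, 21 to 25 and 17 to 23 calls, with 10 without any 1 of the neonatal libraries in neonatal against fetal cells; the cause was not tested. Scaled by library size alone, the median of all genes in neonatal against fetal cells was −0.18 and 29.0% of calls were higher, against 50.4% with TMM scaling, and the Wnt genes gave 3 higher and 14 lower calls against 6 and 11: Fzd2, Lrp6 and Sfrp1 were added as lower, and Porcn, Tcf7l1 and Tcf7l2 were lost as higher. Fzd9 was added as lower in adult against fetal cells. With only the ages compared, Porcn, Lrp5 (neonatal against fetal) and Sfrp1 (adult against neonatal) were lost, and Fzd1 and Sfrp1 (neonatal against fetal) and Wnt5a and Dkk3 (adult against neonatal) were added.

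With the replicate number as a block, the counts were 16, 22 and 20. Same-numbered libraries did not deviate together (correlations −0.065 to 0.052), so the numbers are not taken as a pairing. The block ended the calls of Porcn in neonatal against fetal and adult against neonatal cells (edgeR adjusted p 0.0702 and 0.0614, ranges over the alternatives 0.0265 to 1 and 0.00671 to 0.972), called Axin2 in adult against fetal cells (0.0486, range 0.0317 to 0.475), and moved no other call. Genes with under 30 counts in an age are limited by depth, and their fitted fold changes rest on few counts.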
